A study of Mus musculus with 16 samples.

Results

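Mouse chromosome 7 was described in cultured tumour lines through the array probes placed on it in the genome build mm8, leaving out a window rich in olfactory receptor genes. The rule kept 12498 of the 233212 placed probes, called members here, and set aside 960 probes between 101501463 and 107994071. The members ran from position 3049177 to 145131345, and all positions below are on chromosome 7 in mm8. The rule takes probes by position and uses no measured value, though the chromosome was picked with earlier results of these data known.

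The study hybridised genomic DNA of 16 lines to 2-colour comparative genomic hybridisation arrays, 1 array per line, with line DNA in Cy5 and the same commercial mouse genomic DNA in Cy3 on every array. The strain of that reference is not given in the sources used here. The Balb/C lines were CT26 (colon), 4T1 (breast) and Renca (kidney), and the only DBA/2 line was P815 (mast cell). The C57BI6 lines filled 12 arrays: MC38 (colorectal), LL2 (lung), Hepa1-6 (liver), PAN02 (pancreas), EL4 (blood), ID8 (ovary), 4 melanoma arrays named B16F0 ECAC, B16F0 ATCC, B16F10 NCI and B16F10 ATCC, and the prostate lines TRAMPC1 and TRAMPC2. The B16 arrays were counted as 1 family and the TRAMPC arrays as 1, which gave 12 families. Each array is 1 in vitro culture of an established line. Only B16F0 and B16F10 have 2 arrays each, from different sources, and an SD or p-value below measures the spread between lines. Values are log2 ratios of line over reference, centred on the autosomal median of each array. A segment is a run of probes of like level found by a change point search, and a segment mean at or below -0.3 was called a loss and one at or above 0.3 a gain.

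Mouse chromosome 7 carries several imprinted domains, in which 1 parental copy of a gene is silent. They include the domain of Snrpn and Ube3a and the domain of Igf2, H19, Kcnq1 and Cdkn1c. It also carries Tyr, the tyrosinase gene mutated in albino strains such as Balb/C, and Oca2, which acts in melanosomes. Genes of growth control lie on it too, among them Hras, Igf1r, Ccnd1, Ccne1 and Fgfr2. Lists of imprinted, growth and tumour, immune and pigment genes were written with this chromosome in mind, so their place on it is no result. Checked against the RefSeq gene table of GRCm38.p6, 81 of the 82 listed genes were on it. No file used here pairs probes with genes or places genes in mm8, so none of these genes was assigned to a segment.

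Between 99.5% and 100% of the members gave a line signal well above background, and between 99.7% and 100% a reference signal. Probe-to-probe noise was 0.22 to 0.41. The arrays labelled Hepa1-6 and PAN02 were nearly the same along the chromosome: in 133 bins of 1 Mb they differed by at most 0.13 in size. They are counted as separate families, as labelled, and results with them as 1 family are given in the closing section. All 3 Balb/C arrays were in the first of 2 scan batches, with Hepa1-6, ID8 and B16F10 NCI.

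The level of the whole chromosome set the TRAMPC lines apart. Renca came next, but lay closer to LL2 than the 2 B16F0 arrays lay to each other. The median member lay at -0.58 in TRAMPC1 and -0.57 in TRAMPC2, ratios of 0.668 and 0.674, and at -0.33 in Renca, a ratio of 0.798. LL2 lay at -0.24, B16F0 ATCC at -0.21, ID8 at -0.20, MC38 at -0.18 and 4T1 at -0.17. The remaining arrays were closer to the autosomal level, with B16F10 NCI at -0.12 and P815 at -0.09. Hepa1-6 lay at -0.02, PAN02 at -0.01, B16F10 ATCC at -0.01, EL4 at 0.01, CT26 at 0.02 and B16F0 ECAC at 0.03. In both TRAMPC lines chromosome 7 had the lowest median of the 19 autosomes. It ranked 2 from the bottom in LL2, 3 in B16F0 ATCC, 4 in P815 and 6 in Renca, where other autosomes lay lower still. No array had a median at or above 0.3.

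**Figure D1:**
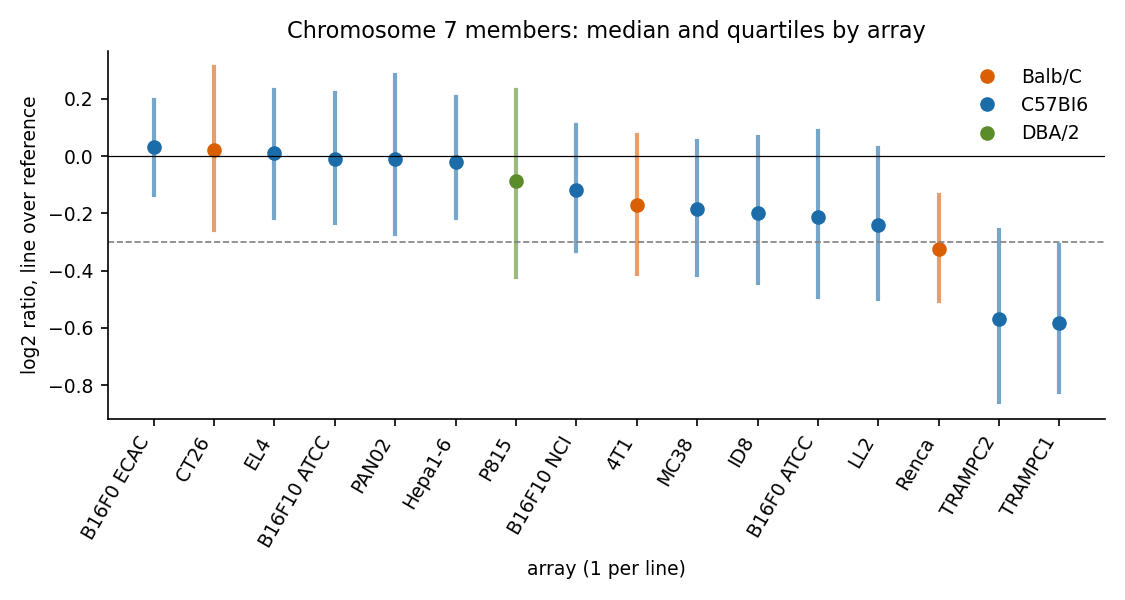
Median (point) and quartiles (line) of the log2 ratio of the chromosome 7 members for each of 16 arrays, coloured by strain, with the loss threshold of -0.3 dashed. TRAMPC1 (-0.58), TRAMPC2 (-0.57) and Renca (-0.33) have medians below the dashed line.

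Loss covered most of the members in 2 of 12 families, TRAMPC and Renca. Lost segments held 99.8% of the members in TRAMPC1 and in TRAMPC2, beside 12.1% and 7.55% of all autosomal probes in the same arrays. The autosomal shares include chromosome 7 itself. It held 12466 of the 26674 lost probes in TRAMPC1 and 12475 of 16583 in TRAMPC2. In Renca lost segments held 69.4% of the members, beside 30.3% of autosomal probes. Much of that share was close to the threshold: its largest segment, of 3640 probes, lay at -0.32. Another of 1948 probes at -0.28 was not counted. The share in 4T1 was 15.0%, against 8.88% of autosomal probes, in LL2 7.63% against 5.73%, and in P815 7.43% against 4.3%. In MC38 it was 3.097% against 12.7%, in EL4 3.51% against 11.3% and in ID8 3.09% against 3.58%. The share was smaller still in CT26 (0.736% against 4.13%), Hepa1-6 (0.712% against 2.12%) and PAN02 (0.640% against 2.07%). In these 6 lines the share of chromosome 7 lost was below that of all autosomes. In PAN02 the lost members all lay in a stretch that was low in every array. In CT26 and Hepa1-6 they all lay in that stretch and in short stretches shared with other lines, described below. In B16F0 ATCC 12.4% of the members were lost against 14% of autosomal probes, mainly through a segment from 48337492 to 67529194 at -0.32, close to the threshold. The shares were 0.736% against 13.8% in B16F0 ECAC, 0.712% against 20.9% in B16F10 NCI and 0.768% against 16.1% in B16F10 ATCC. In B16F0 ECAC and B16F10 NCI the lost members also lay only in such shared stretches. At a threshold of -0.5 the count of families was 1, with TRAMPC left and Renca out.

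The TRAMPC loss ran from the first member to the last, broken only by high parts of a block described below. Short stretches shared with other lines lay lower still. TRAMPC1 lay at -0.50 (SE 0.0078 over 2968 probes) up to 37882974, at -0.63 (SE 0.010 over 1507 probes) from 47827437 to 67529194, and at -0.56 (SE 0.0047 over 7008 probes) from 68240234 to the end. TRAMPC2 was cut into more segments, between -0.84 (84966860 to 88342512) and -0.40 (42873145 to 47180243) among those of 1 Mb or more. The 2 TRAMPC arrays differed by 0.3 or more in 0 of 133 bins, with a largest difference of 0.15. Under the normexp background correction, the TRAMPC2 median moved from -0.57 to -0.09, while that of TRAMPC1 stayed at -0.54.

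The Renca loss stopped short of the distal end. From 3049177 to 136894369 the median of 11455 members was -0.35, and from 136904240 to 145131345 the 1042 distal members had a median of 0.09. The proximal part was uneven: it lay at -0.54 (SE 0.017 over 693 probes) from 50063054 to 60267759 and at -0.32 (SE 0.0045 over 3640 probes) from 96713111 to 136894369. The other lost segments of 1 Mb or more were between -0.75 and -0.31, the lowest being 80 probes from 9041395 to 10348321 (SE 0.080). Within the proximal part lay 2 short segments at a far lower level. The first, 31.4 kb from 46875178 to 46906571, held 6 probes at -3.94 (SE 0.35), of which 3 had a dim line signal, not well above background. Setting such probes to the lowest signal that was well above background on the array put Renca at least 13.9-fold below the reference there. The other 11 families lay between -0.36 and 0.39 at the same probes. The second, 115 kb from 87564205 to 87679670, held 12 probes at -4.45 (SE 0.24), 8 of them not well above background, and was at least 16.6-fold below the reference. The other families lay between -0.80 and -0.07 there. These were among the deepest segments on the chromosome in any array, and neither was shared by another family. Under normexp they lay at -1.55 and -1.64.

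P815, the DBA/2 mast cell line, carried a nested loss in its own pattern. From 54832578 to 62561876, a span of 7.73 Mb, its 567 members had a median of -1.20, a ratio of 0.436, while the means of the other 11 families lay between -0.69 and 0.06. The outer members were at -1.13 (SE 0.032 over 374 probes) before 59122271 and at -1.44 (SE 0.066 over 136 probes) after 60632814. Inside them lay 3 deeper parts separated by members near the outer level. The first, from 59134204 to 59162104, held 5 probes at -3.65 (SE 1.1). The second, from 60076679 to 60198724, held 7 probes at -4.48 (SE 0.48) and was at least 9.62-fold below the reference. The third, from 60409898 to 60612105, held 11 probes at -3.33 (SE 0.41) and was at least 6.15-fold below it. The spacers between them were at -1.41 (24 probes) and -1.25 (10 probes). In all, 60 of the 567 members lay at or below -2. Beyond the nested loss, members from 62584076 to 65748053 lay at -0.43 (SE 0.041). Under normexp the P815 values shrank: the outer part moved from -1.13 to -0.19 and the second deep part from -4.48 to -0.25.

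**Figure D2:**
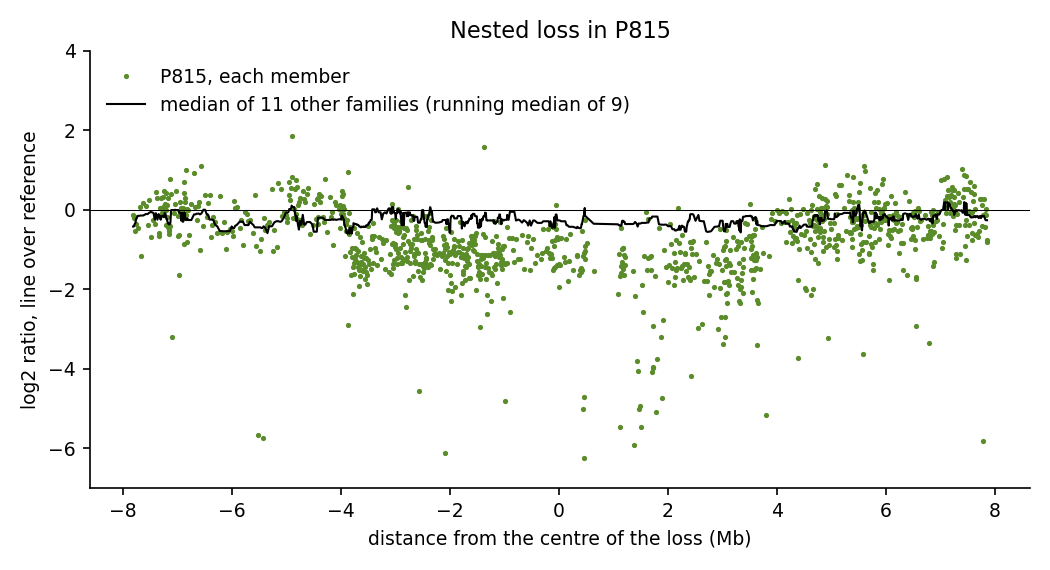
Log2 ratio of each member in P815 (points) and the median of the 11 other families (line, running median of 9 probes), against the distance in Mb from the centre of the nested loss. P815 has a median of -1.20 across 7.73 Mb, with 60 of 567 members at or below -2, while the line for the other families stays near its level outside.

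EL4, the blood line, had 3 focal losses and a long stretch at a lower level. Its first focal loss, from 64682218 to 64796354, held 14 probes at -1.11 (SE 0.082), a ratio of 0.464, and the other families lay between -0.67 and 0.19. The second, from 94682455 to 94798061, held 5 probes at -1.63 (SE 0.20), with the other families between -0.80 and -0.15. The third spanned 498 kb from 138003481 to 138501101 and held 40 probes at -1.05 (SE 0.061), with the other families between -0.83 and 0.05. The EL4 medians were 0.09 from the first member to 67508237, -0.26 from 68240234 to 101055661 and 0.08 from 101060524 to the end. The middle level therefore began at a stretch that was low in every array (described below) and stopped next to the olfactory receptor window. The focal values moved to -0.50, -0.67 and -0.47 under normexp.

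CT26, a Balb/C colon line with a chromosome median near 0, was in fact made of 3 levels. Its median was 0.22 from 3049177 to 67492607, a ratio of 1.16. It was -0.19 from 68278005 to 132041609 and 0.10 from 132058327 to the end. The first change again fell at the stretch low in every array: within 5 Mb the 287 members after it lay 0.46 below the 444 members before it in CT26. In the other 11 families this difference ran from -0.16 (EL4) to 0.00, with a median of -0.04. The CT26 gain called from 42285907 to 47180243 had a mean of 0.30 (SE 0.015 over 726 probes), just past the threshold, and no other family reached 0.3 there.

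The remaining named segments were shallow. In 4T1 they lay from 6241883 to 11741386 at -0.37 (SE 0.030), from 30747513 to 42855243 at -0.30 (SE 0.017) and from 50160942 to 63393330 at -0.35 (SE 0.018). LL2 had a segment at almost the same borders as the last of these, from 50229734 to 63329234 at -0.40 (SE 0.014). Against flanks of 5 Mb this segment lay at -0.23 in both 4T1 and LL2. It falls on a shallow step, described below, that was below its flanks in all 12 families. MC38 and ID8 both had a segment that began at 84966860, at -0.46 (SE 0.023) in MC38 and -0.43 (SE 0.024) in ID8. TRAMPC2 had one from the same member at -0.84 (SE 0.030), and EL4 had one from 85033049 at -0.50 (SE 0.023). These segments fall on another such shared step. Against flanks of 5 Mb they lay at -0.32 in MC38, -0.26 in ID8, -0.32 in TRAMPC2 and -0.26 in EL4. LL2 was high from 46587799 to 47842848 at 0.35 (SE 0.070), and P815 from 46462016 to 47801520 at 0.37 (SE 0.059). Over the members from 46587799 up to the block described below, LL2 lay 0.43 and P815 0.33 above flanks of 5 Mb on each side, against a median over the 12 families of 0.10.

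One short loss separated arrays of a single family. From 79372145 to 79386958, 15 kb, 7 probes had a mean of -2.30 (SE 0.47) in B16F10 ATCC. The same 7 probes lay at 0.04 in B16F10 NCI, 0.05 in B16F0 ECAC and -0.07 in B16F0 ATCC. P815, of another strain and cell type, had a segment at exactly the same borders with a mean of -2.33 (SE 0.38). In both arrays 1 of the 7 probes had a dim line signal, and the bounds were at least 4.39-fold and 4.58-fold below the reference. The arrays of the other families lay between -0.55 (TRAMPC1) and 0.14 (PAN02). Under normexp the values were -0.37 in B16F10 ATCC and -0.28 in P815.

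The sublines of B16, which differ by passage history for metastasis in the mouse, could be compared over the chromosome with 2 arrays each. In the 133 bins the B16F10 minus B16F0 difference ran from -0.10 to 0.10, with a median of 0.03 and a median SE of 0.11. None of 133 bins passed limma at an adjusted p under 0.05, and 0 of 133 had an unadjusted p under 0.05. Across the autosomes 0 of 2390 bins passed (0%), with 122 at an unadjusted p under 0.05. The smallest adjusted p on chromosome 7, by limma with Benjamini-Hochberg adjustment, was 0.92. The bin with the largest difference, from 18000001 to 19000000, lay at 0.00 in B16F10 and 0.11 in B16F0, a difference of -0.10 (SE 0.091). Some single arrays differed by more than these subline means. Within B16F0, the ECAC array lay 0.23 above the ATCC array at the median bin, by 0.3 or more in 26 of 133 bins. After that median difference was removed, 0 bins were left past 0.3. Across the sublines, B16F0 ATCC minus B16F10 ATCC was -0.21 at the median bin, with 21 of 133 bins past 0.3 in size. The other array pairs across the sublines had 0 bins past 0.3.

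Every array was low over one stretch between 67 and 69 Mb. The interval was chosen beforehand for being low in all arrays, so its values are a description. Over all 174 members of that interval the median lay below the members within 5 Mb on either side by 0.11 to 0.34, with a mean over families of -0.25 ± 0.060 (SD, n = 12). That median mixes low members with members at the level of the flanks. The segments placed the low part more narrowly: 79 members from 67535802 to 68232063, 696 kb, lay inside a low segment in all 16 arrays. This core, chosen on the values, lay at -0.71 ± 0.068 (SD, n = 12) against its flanks, a ratio of 0.610.

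The depth of the core was alike across lines of very different overall level. Against its flanks it was at -0.65 in CT26, -0.63 in 4T1 and -0.66 in Renca, the Balb/C lines, and at -0.75 in P815. Among the 8 C57BI6 families the lowest was PAN02 at -0.82, the median was -0.75 and the highest was EL4 at -0.59. TRAMPC1, with nearly all its members in segments called lost, lay at -0.78 and TRAMPC2 at -0.73. The 4 B16 arrays lay between -0.76 and -0.70. Of the 79 members, 72 were below the flanks in all 16 arrays, and 54 were at least 0.3 below them in all 16. The 5 members just before the core averaged -0.05 ± 0.19 (SD, n = 12) against the flanks and the 5 just after it -0.05 ± 0.15, so the change fell within a few probes on both sides. The first segment border lay between 67497300 and 67532498 and the second between 68236148 and 68271268 in all 12 families. The low segment ended at 68264531 in CT26, 4T1 and Renca, and at 68232063 or 68240293 in the other arrays. The Balb/C minus C57BI6 difference was -0.87 at the member from 68264472 (limma adjusted p 0.0062). It was -0.93 at the member from 67508178 (limma adjusted p 0.0074). These members were picked out after their values were seen, and the cause was not tested.

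**Figure D3:**
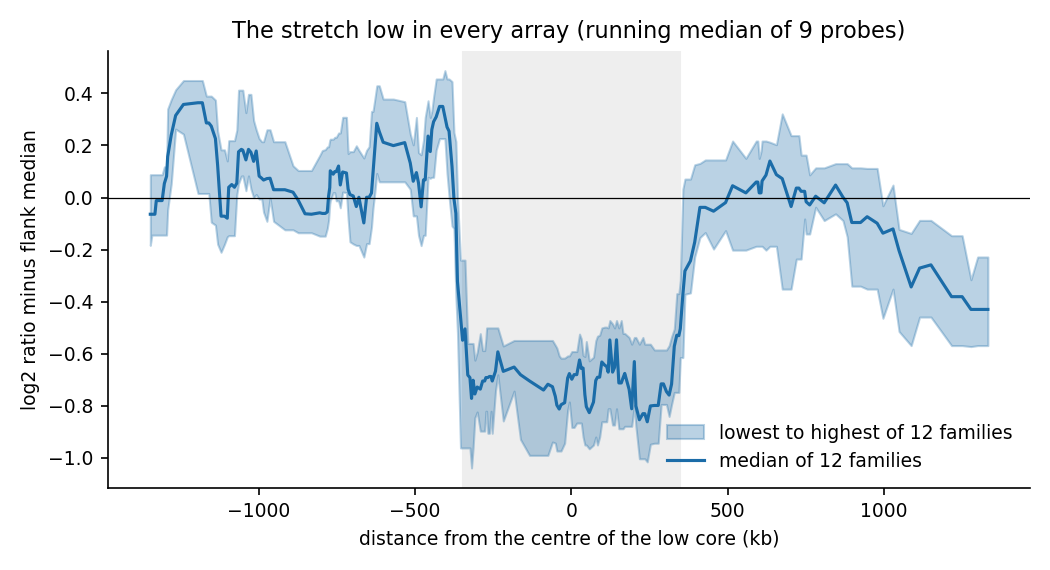
Log2 ratio minus the flank median (running median of 9 probes) against the distance in kb from the centre of the low core, with the median (line) and the lowest and highest of 12 families (band), and the 696 kb core shaded. The whole band drops within the shaded core, where the family mean is -0.71, and returns towards 0 at its borders.

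A window of 79 neighbouring probes was slid along all autosomes in steps of 10 probes to see how common such a stretch was. Its length was that of the core, which was chosen for being low in every array, so a pass there is no finding. The count bears only on the windows elsewhere. Of 21831 windows, 6 (0.0275%) had every array at or below -0.3 against its flanks, and all 6 overlapped this core. At -0.5 the count was 4 (0.0183%), again over the core. In the other direction, 0 windows (0%) had every array at or above 0.3. A window of this length is too long to register short shared stretches, high or low. Those described below include high parts of 19 and 10 probes and a shorter low part between them. Under normexp the core lay at -0.51 and the whole 67 to 69 Mb interval at -0.17 ± 0.12 (SD, n = 12).

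The depth of the stretch did not separate the strains at the threshold used. Over 67 to 69 Mb the 3 Balb/C lines averaged -0.23 ± 0.029 (SD, n = 3) and the 8 C57BI6 families -0.27 ± 0.069 (SD, n = 8). The difference was 0.03, with p = 0.52 by a two-sided exact permutation test, whose smallest possible p is 0.0061. Over the core the values were -0.65 ± 0.019 (SD, n = 3) and -0.74 ± 0.068 (SD, n = 8), a difference of 0.09 with p = 0.073 in the same exact test. EL4 at -0.59 was the only C57BI6 family above the Balb/C lines. The level of the whole chromosome was also close between strains, at -0.16 ± 0.17 (SD, n = 3) in Balb/C and -0.16 ± 0.19 (SD, n = 8) in C57BI6, with an exact permutation p of 0.98. The sign of that last difference turned under normexp and other settings listed in the closing section.

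A second feature shared by all arrays was a block of high, low and high parts between 47189286 and 47801520. The first part, 19 members from 47189286 to 47433387, lay above its flanks by 0.84 to 1.08 in the 16 arrays, with a family mean of 0.95 ± 0.075 (SD, n = 12). The second, 5 members from 47457642 to 47476273, lay between -1.498 and -1.10 against them, with a mean of -1.24 ± 0.10 (SD, n = 12). The third, 10 members from 47497806 to 47801520, lay above them by 0.81 to 1.43, with a mean of 1.05 ± 0.17 (SD, n = 12). No array departed from this order. The strains overlapped in all 3 parts: the Balb/C means were 0.95, -1.25 and 0.99, and the C57BI6 means 0.96, -1.23 and 1.07. In the first part 2 of the 19 probes had a dim reference signal on 14 of the 16 arrays, with 4 in LL2 and 1 in 4T1. The family means under normexp were 0.36, -0.88 and 0.45.

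Broad and shallow steps recurred as well. Against flanks of 5 Mb, the members from 37923019 to 43897179 lay at -0.18 ± 0.038 (SD, n = 12) and those from 50204856 to 63284800 at -0.21 ± 0.17. Those from 84983332 to 88785784 lay at -0.22 ± 0.060 and those from 128570330 to 138856553 at -0.16 ± 0.056. Each of the 4 was below its flanks in 12 of 12 families. P815 held the lowest value of the second step, -0.74, where its nested loss lies, while the 8 C57BI6 families averaged -0.16 ± 0.055 (SD, n = 8) there. These intervals were chosen after the segment borders were seen. Segment borders fell at 68 positions when borders within 100 kb were joined: 44 were found in 1 family, 11 in 2, 13 in 3 or more, 6 in 6 or more, and the 2 borders of the core in all 12.

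Counted in bins, 63 of 133 bins (47.4%) had a mean at or below -0.3 in at least 3 families, against 23% of 2390 autosomal bins. TRAMPC and Renca, with losses over most of the members, are among those families in many bins. Only 1 bin was lost in 0 families. The bins at 67 and 68 Mb were each lost in 10 families, and those at 85 and 86 Mb in 9. Gains covered little of the chromosome: 16 of 133 bins were at or above 0.3 in any family, against 57.9% of 2390 autosomal bins. In 16 of 16 arrays the share of members in gained segments was below that of all autosomal probes, with a median of 0.232% against 12.96%. CT26 had the largest share, 6.04% against 12.2%. Outside CT26, LL2 and P815, every gained segment lay in the block of high, low and high parts. The bin at 47 Mb, which holds the block described above, was gained in 8 families, and no other bin in more than 3.

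Single members differed between the Balb/C lines and the C57BI6 families. By limma with Benjamini-Hochberg adjustment over 219298 autosomal probes, 249 of 12475 members tested were called at an adjusted p under 0.05 (2.00%), near the 2.31% of all autosomal probes called. Of these, 192 were lower in Balb/C (1.54%, against 1.95% of all probes) and 57 higher (0.457%, against 0.361%). The count was 154 with the scan batch as a block, 164 within the first scan batch and 43 under normexp, where 26 were lower and 17 higher. The called members formed 12 runs of at least 2 neighbours lower in Balb/C and 7 runs higher, with 50 probes in runs. These 50 are 0.401% of the members tested, against 0.544% of all autosomal probes, a share that does not set the chromosome apart. The 5 largest runs in each direction are described.

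The run of largest size with Balb/C higher was a short stretch that P815 shared with the C57BI6 lines. Its 5 probes from 37887916 to 37909600, 21.7 kb, had means of 0.23 in CT26, -0.28 in 4T1 and -0.41 in Renca. In the 8 C57BI6 families they ran from -2.58 to -1.73, with a mean of -2.14 ± 0.25 (SD, n = 8), and P815 lay at -1.89. The groups did not overlap, in a run that was chosen on their difference. The Balb/C minus C57BI6 difference was 1.99, a 3.96-fold higher ratio, and the largest adjusted p of the 5 probes was 5.0e-05 by limma. No spot was dim in either channel. Of the members beside it, the one at 37914702 went the other way, from -0.02 to 1.03 in Balb/C and from 2.35 to 3.18 in C57BI6, with P815 at 3.17. The one at 37929012 ran from 0.73 to 1.59 in Balb/C and from 2.29 to 3.30 in C57BI6, with P815 at 3.13. The limma adjusted p was 3.2e-07 for the first and 3.9e-05 for the second. Under normexp the run kept a difference of 2.05, but its largest adjusted p was 0.30.

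The other 4 of the 5 largest runs higher in Balb/C were smaller. From 40998761 to 41053088, 4 probes lay at 0.10 ± 0.34 (SD, n = 3) in Balb/C and -0.80 ± 0.21 (SD, n = 8) in C57BI6, with P815 at -0.57. Between 60292455 and 60435637 lay 3 runs, of 3, 2 and 2 probes. Their Balb/C means were 0.75, 0.64 and 0.60 and their C57BI6 means -0.15, -0.37 and -0.24. This is also the site of the nested P815 loss, and P815 lay at -0.60, -1.35 and -3.45 there. CT26 was the highest line in all 3 of these runs, at 1.24, 0.95 and 0.94. Without CT26 none of these 4 smaller runs kept all probes past the threshold, with largest adjusted p values of 0.23, 0.47, 0.056 and 0.22 by limma, in order of position. With the scan batch as a block they were also lost, at 0.18, 0.16, 0.071 and 0.30.

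The 5 largest runs lower in Balb/C held both low Balb/C values and high C57BI6 values. The deepest, 2 probes from 9886411 to 9912220, lay at -2.34 in CT26, -3.29 in 4T1 and -3.47 in Renca, and between -0.32 and 0.51 in the C57BI6 families, with P815 at 0.41. In Balb/C 3 of 6 spots had a dim line signal, and the bounded ratio was at least 4.45-fold lower. The largest limma adjusted p was 0.024, which became 0.17 with the scan batch as a block, 0.15 without 4T1 and 0.32 without Renca. Close to it, 6 probes from 10208846 to 10348321 lay at -1.16 ± 0.31 (SD, n = 3) in Balb/C and 0.30 ± 0.22 (SD, n = 8) in C57BI6, with P815 at 0.47. The largest adjusted p of that run was 0.015 by limma, and it became 0.13 with the scan batch as a block, 0.13 without 4T1 and 0.13 without Renca.

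In the other 3 of these 5 runs the C57BI6 lines were above the reference. From 84944806 to 84955433, 2 probes lay at -0.17 ± 0.27 (SD, n = 3) in Balb/C and 2.23 ± 0.25 (SD, n = 8) in C57BI6, with P815 at -0.12. The reference signal was dim in 15 of 32 spots there, and the line signal in 3 of the 6 Balb/C spots. From 94026989 to 94036450, 2 probes lay at -0.58 ± 0.20 (SD, n = 3) in Balb/C and 1.79 ± 0.29 (SD, n = 8) in C57BI6, with P815 at 1.53. From 93523378 to 93541952, 2 probes lay at -0.68 ± 0.39 (SD, n = 3) and 0.75 ± 0.25 (SD, n = 8), with P815 at 0.07. P815 was thus near the Balb/C level in the first of these runs, near the C57BI6 level in the second and between them in the third. The largest limma adjusted p values were 0.0011, 4.3e-05 and 3.6e-04. These 3 runs and the run at 37887916 passed under 9 of 10 alternative settings, the exception being normexp. A pass was scored on the probes that a setting kept. Without probes dim in the reference, the pass of the run at 84944806 may therefore rest on fewer than 2 probes.

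A bin with few probes, overlapping a smaller called run, also had lower values in the Balb/C lines. Its 9 members between 38016136 and 38249210 averaged -0.76 in CT26, -1.03 in 4T1 and -1.03 in Renca, against 0.03 in P815. The C57BI6 arrays ran from -0.66 (TRAMPC2) to -0.05 (EL4), so the means of the groups did not overlap. By median CT26 at -0.66 and TRAMPC2 at -0.65 were nearly level. By limma, 4 of the 9 members were called lower in Balb/C, against 1.95% of all autosomal probes, and 3 of these 4 belong to the called run of 4 probes from 37999628 to 38074160. The bin was singled out after its values were seen, so nothing is read from that share or from the lack of overlap.

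**Figure D4:**
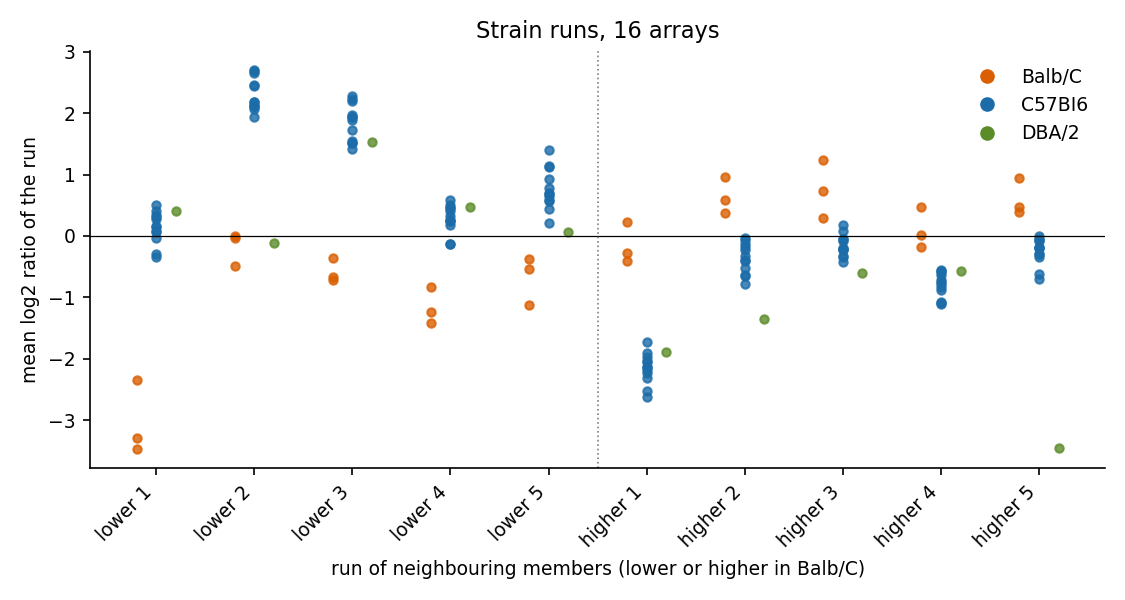
Mean log2 ratio of the 5 largest runs lower and the 5 largest runs higher in Balb/C, in the order of size of the difference, for 16 arrays coloured by strain. The Balb/C and C57BI6 points do not overlap in any run, but the runs were chosen on this difference, so that is no added result. The DBA/2 point sits with C57BI6 in some runs and with Balb/C in the run labelled lower 2.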

How the data were processed

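Agilent Feature Extraction 10.7.3.1 produced the deposited spot intensity values, per the file headers. By the dyes in the labels, each deposited log10 ratio sets line over reference. The authors' deposited value table is in log2 units and differed from log2 of the processed intensity ratio by at most 5.06e-05 on any array. Its column medians ran from -0.044 to 0.053. Positions are in mm8, per the file headers.

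Values were log2 of processed red over green, with control and flagged spots left out (155 to 256 flagged spots per array) and repeat spots averaged. The median of the 220668 autosomal probes was subtracted per array, without loess or quantile normalization. Segments came from a least-squares change point search. Its penalty was 6 × noise variance × ln(autosomal probe count), with at least 5 probes a segment, and probes limited to 3 noise SDs about a running median of 5. For a probe not well above background, a floor was set at the array's lowest signal well above background, and such folds are given as "at least". Flanks are the members within 5 Mb. Segment SEs are over probes.

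Strains were compared with limma 3.58.1 in R 4.3.3 (lmFit, eBayes, Benjamini-Hochberg at 0.05) over families, and single values with two-sided exact permutation tests. P815 stayed out of these. B16 sublines were compared by limma in bins of 1 Mb. The named segments were all those of at least 1 Mb past 0.3 and all under 5 Mb past 1 in size. The named strain runs were the 5 largest each way, and the B16 bin was the one with the largest difference. Segments of a shared feature are given once. The members and lists were chosen with earlier results of these data known. Segmentation and limma were tested on simulated data. Normexp (offset 50) used the median spot and background signals. The number of arrays limits the precision. Alternatives are listed with their effect in the closing section.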

Additional observations from a re-analysis of the deposited data

Results flagged for a closer look

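Dixon's test for a lone extreme value was applied to 40 groups of values, over the 8 C57BI6 families and over the 4 B16 arrays, for the chromosome median, the shared features and the strain runs. It marked 3 groups, and chance marks about 1 in 20.

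The TRAMPC family was lowest of the 8 C57BI6 families for the chromosome median, at -0.58, with the next family at -0.24.

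EL4 was highest of the 8 C57BI6 families for the 67 to 69 Mb interval against its flanks, at -0.11, with the next at -0.25. EL4 is also the C57BI6 line whose level differed most across this stretch.

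B16F0 ATCC was lowest of the 4 B16 arrays for the same interval, at -0.32, with the next at -0.25.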

How the results depend on the processing

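The count of families with a loss over most of the members stayed at 2 under 7 alternatives, was 3 at a threshold of -0.2 (LL2 added) and 1 at -0.5. The 67 to 69 Mb interval against its flanks was -0.17 under normexp and -0.71 over the core, an alternative chosen after seeing the data, and ran from -0.27 to -0.24 when each family was left out in turn. The strain difference of that interval turned to -0.011 under normexp (p = 0.92, exact permutation) and was 0.02 to 0.05 with each Balb/C line left out. The strain difference of the chromosome median, 0.0039, turned to -0.075 under normexp, -0.041 with mode centring and -0.046 within the first scan batch, an alternative added after seeing the data. It ran from -0.086 to 0.088 with each Balb/C line left out, the lowest being without CT26, and its exact permutation p was at least 0.45 in each of these settings. The strain count of 249 members was 43 under normexp, 154 with scan batch as a block and 164 inside the first scan batch, and 166 to 197 with each Balb/C line left out. The B16 count was 0 in every setting run, including bins of 0.5 Mb and each B16 array left out. With Hepa1-6 and PAN02 as 1 family, the family count was 2, the 67 to 69 Mb interval -0.25, its strain difference 0.03, the chromosome difference 0.02 and the strain count 229. Mode centring moved the autosomal median by -0.12 in Renca and by -0.02 to 0.08 in the other arrays.

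Normexp narrowed the spread of the members to under 50% of the main spread on 6 of 16 arrays (B16F0 ECAC, B16F10 ATCC, P815, PAN02, TRAMPC2 and ID8), and the cause was not tested. Of the 10 named strain runs, 0 kept all probes past the threshold under normexp, 4 with the scan batch as a block, 5 within the first scan batch, 6 without CT26, 6 without 4T1 and 8 without Renca. No paired analysis of the strains was made, because the labels pair no line of one strain with a line of another. With the penalty used, a segment at -1 needs about 17 probes at the median noise to be found, so shorter shallow changes were not detectable.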
